A study of Rattus norvegicus with 30 samples.

Results

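The mitochondrial carriers of the Slc25 family were measured by microarray in the hearts of F344 rats, an inbred strain. Members were all rows of the authors' 3 tables of normalized values whose gene name starts with Slc25. They amounted to 52 rows with 38 gene names, built from 65 probes. The tables hold 27408, 27383 and 26553 rows with 23268, 23227 and 22458 gene names at 8, 21 and 78 weeks. The groups were untreated females and males from 1 breeding colony, 5 of each sex at 8 weeks (young), 21 weeks (adult) and 78 weeks (old), with 1 one-color array per rat and 30 arrays in all. Each carrier was described by its brightest probe, the one with the highest mean signal over the 30 arrays.

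Carriers of this family sit mostly in the inner mitochondrial membrane and move nucleotides, phosphate, carboxylates, amino acids and cofactors between the matrix and the cytosol. In the heart, which draws most of its ATP from oxidative phosphorylation, the ADP/ATP carriers and the phosphate carrier supply the ATP synthase with its substrates. The malate-aspartate shuttle carriers bring reducing equivalents into the matrix, and the carnitine-acylcarnitine carrier brings in fatty acids for oxidation. The uncoupling proteins Ucp1, Ucp2 and Ucp3 belong to the same protein family but are listed under other names and were not members here.

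Several properties of the arrays touch all results. The scanner software called between 17182 and 24290 spots per array well above background, and the lowest 75th percentile, 39.9 signal units against a median of 72.1 in its group, was that of male replicate 2 at 21 weeks. Males at 21 weeks were also the dimmest group. Its median 75th percentile of 72.1 compares with 103.7 to 125.4 in the other groups, and its median of 19602 spots above background with 21527 to 23774. The cardiomyocyte genes Myh6 and Tnnt2 were at 9.53 and 8.95, well above background on all 30 arrays, as defining genes of the labeled tissue. At 78 weeks Y-linked genes went against the sex label in female replicate 2 and male replicate 3, so results of that age are also given without this pair of arrays. Array position followed sex, females at positions 2 and 4 and males at positions 1 and 3. According to the study's methods, the ages were processed in different batches, so that batch and age cannot be told apart. By the scanner files, 8 and 21 weeks shared no slide or scan day, 8 and 78 weeks shared slide 3 and a scan day, and 21 and 78 weeks shared a scan day, and values within these are given below. In whole tissue, a smaller number of cells of 1 type and less RNA per cell cannot be told apart either.

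Level is given on a log2 scale, as the background-subtracted signal of a spot relative to the 75th percentile of its own array. A value of 0 is therefore the 75th percentile. The brightness of a probe also depends on its sequence, so the order is of probe signal and not of transcript number. At 31 carriers the probe was well above background on all 30 arrays, at 5 on some arrays and at 2, Slc25a44 and Slc25a47, on no array.

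An ADP/ATP carrier and the phosphate carrier lay at the top. Slc25a4, the ADP/ATP carrier of heart and muscle, was highest, with a mean level of 9.14, and 99.9% of all probes lay below it. Its lowest array was at 8.46, the median at 9.09 and the highest at 10.29. This probe was saturated on 26 of 30 arrays, so its top levels are lower bounds, and the other probes of the gene, never saturated, were at 8.32 and 5.86. The probes are shown because differences of Slc25a4 between ages rest on which of them is read. They lie on chromosome 16 of the rn3 build, plus strand, at chr16:49355397-49355456 (saturated) and chr16:49355063-49355122 (the brighter of the unsaturated pair).
Slc25a4 saturated probe: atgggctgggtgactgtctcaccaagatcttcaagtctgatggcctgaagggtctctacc
Slc25a4 unsaturated probe: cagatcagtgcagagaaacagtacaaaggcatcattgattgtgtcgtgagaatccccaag

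The phosphate carrier Slc25a3 followed with a mean level of 7.71, between 7.01 and 9.10 on single arrays. Slc25a5, the ADP/ATP carrier that is more widespread across tissues, was at 5.52 and the row named Slc25a6 at 4.63. The probes of Slc25a5 and Slc25a6 were the only pair of different carriers, among 2080 pairs of probes, to share a run of at least 15 bases. The run, in capitals, was 40 bases long, so the signals of the rows Slc25a5 and Slc25a6 cannot be separated at these probes. The scanner files name the Slc25a6 probe RGD1560896_predicted, so its values hold for the probe and not with certainty for a separate carrier. Both probes were placed on the minus strand of chromosome X, at chrX:8078022-8078081 and chrX:8077774-8077827 of rn3.
Slc25a5 brightest probe: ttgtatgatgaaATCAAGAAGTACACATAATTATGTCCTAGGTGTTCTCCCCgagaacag
Slc25a6 probe: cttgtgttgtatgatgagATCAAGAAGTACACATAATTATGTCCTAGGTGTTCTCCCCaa

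Carriers of the malate-aspartate shuttle and of carnitine lay between or just below Slc25a5 and Slc25a6 or above them, at ranks 3, 5 and 7. The aspartate-glutamate carrier Slc25a12 was at 6.58, over 19 arrays, because its spot was flagged as an outlier and left out on 11 arrays. That left 3 females and 3 males at 8 weeks, 4 and 5 at 21 weeks and 2 and 2 at 78 weeks. The second probe of Slc25a12, which the scanner files name Slc25a12_predicted, was at -2.62. They name the brighter probe RGD1561141_predicted, so the place of Slc25a12 in this order holds for that probe and not with certainty for the carrier. The oxoglutarate-malate carrier Slc25a11 was at 5.04 and the carnitine-acylcarnitine carrier Slc25a20 at 4.53. Slc25a39, a carrier tied to glutathione import, was at 3.46, the calcium-regulated ATP-Mg/phosphate carrier Slc25a25 at 2.68 and the coenzyme A carrier Slc25a42 at 2.53. Most neighbors in this order did not differ beyond their spread. Only 5 of 37 neighboring pairs kept their order on every array that measured both: Slc25a4 above Slc25a3, Slc25a3 above Slc25a12, Slc25a12 above Slc25a5, Slc25a20 above Slc25a39 and Slc25a39 above Slc25a25. Slc25a6 exceeded Slc25a20 on 18 of 30 arrays.

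Members of 1 role differed widely in level. The second aspartate-glutamate carrier, Slc25a13, was at 1.58, and the glutamate carrier Slc25a22 at 2.43. The oxodicarboxylate carrier Slc25a21 was at -1.01 and the dicarboxylate carrier Slc25a10 at 0.04. The citrate carrier Slc25a1 had a mean level of -1.65 and varied from -2.48 to 0.29. Among the ATP-Mg/phosphate carriers, Slc25a24 was at 2.28 and Slc25a23 at -1.38. The iron carrier Slc25a28 was at 1.47 on all arrays, whereas Slc25a37, the iron carrier known from developing red cells, was at -4.41 and above background on 1 array. Slc25a2, an ornithine carrier, and Slc25a45 were above background on 1 and 2 arrays. The plot of levels shows these orders array by array.

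**Figure D1:**
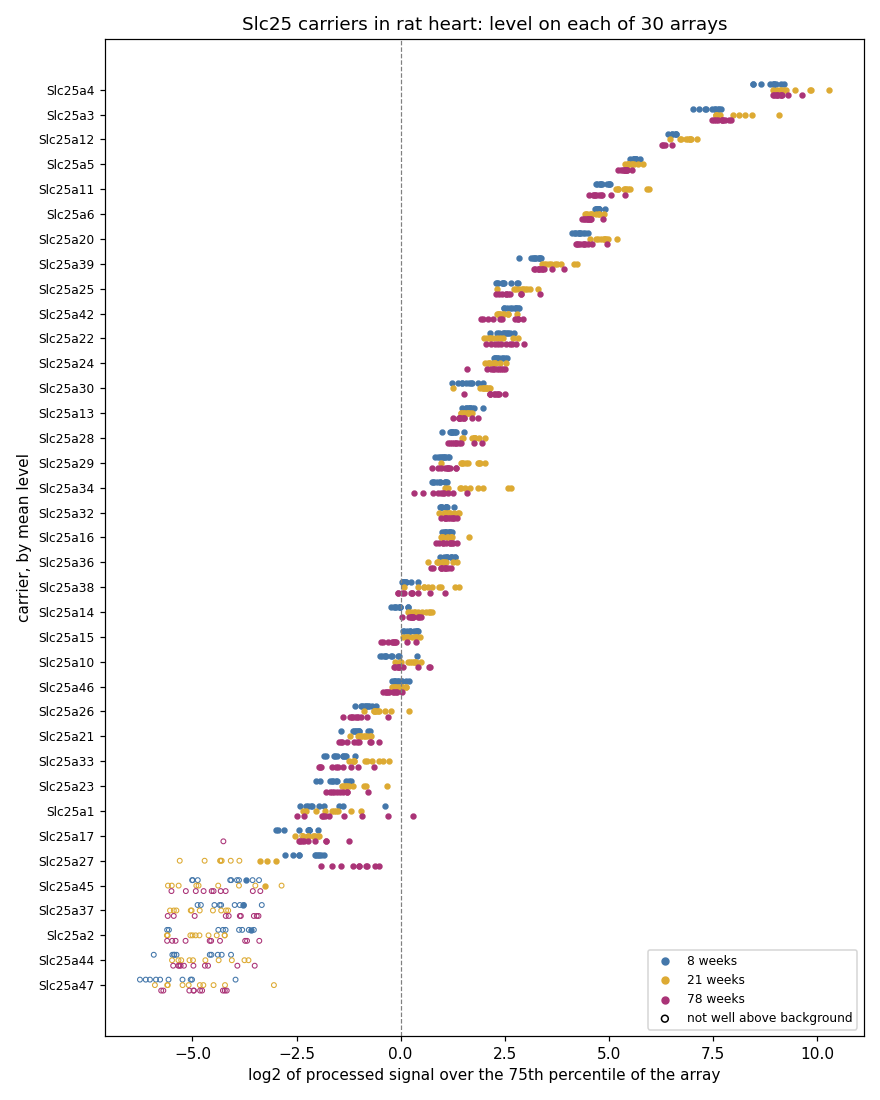
Level of the brightest probe of 37 Slc25 carriers (log2 relative to the array's 75th percentile, x axis) on up to 30 arrays, colored by age, with open points where the spot was not well above background. Slc25a4 and Slc25a3 lie at the top, with means of 9.14 and 7.71, and the 5 carriers at the bottom, below -4, are nearly all open points.

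Differences between ages were taken from 1 limma fit over all 30 arrays, with Benjamini-Hochberg adjusted p-values over all probes. The tables of single ages were normalized separately, and the scanner files were used here. A difference was called at an adjusted p under 0.05.

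Between 8 and 21 weeks, the shuttle carrier Slc25a11 and the carnitine-acylcarnitine carrier Slc25a20 were among the carriers with higher expression in adult compared to young rats. The ADP/ATP carrier Slc25a4, the phosphate carrier Slc25a3 and the shuttle carrier Slc25a12 were also called higher. Their differences depended on the scaling, as given below. Of 38 carriers 22 were called, 18 higher and 4 lower at 21 weeks. Of all probes 56.8% were called, 41.5% higher and 15.2% lower, and of probes above background on at least 15 arrays 60.6%, so the carriers were called about as often as other probes. The median difference was 0.29 over carriers and 0.28 over all probes. Beside this, 5 of 6 cardiomyocyte genes were higher at 21 weeks and 1, Ryr2, was lower (-0.995, adjusted p = 5.02e-06). Of the fibroblast genes 5 of 6 were lower and 1, Dcn, was higher (0.32, adjusted p = 0.000612). Of the endothelial genes 4 of 5 were lower, and 4 of 5 leukocyte and 3 of 3 measured erythroid genes were higher. The summed cardiomyocyte signal, in multiples of the 75th percentile, was 1724 to 2698 at 8 weeks and 2410 to 6327 at 21 weeks, and the summed fibroblast signal was 457 to 573 and 272 to 367. The cardiomyocyte genes Myh6 and Actc1, at 9.53 and 9.23, were brighter than the Slc25a4 probe at 9.14 that was saturated on 26 of 30 arrays. Saturation of the cell type genes was not examined, so the summed cardiomyocyte signal is not a measure of the size of a rise. All cardiomyocyte, fibroblast and endothelial genes of the lists were above background on all 30 arrays, and their part in the result was not tested.

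Slc25a20 was at 4.11, 4.29 and 4.50 (lowest, median and highest array) at 8 weeks and at 4.55, 4.89 and 5.19 at 21 weeks. Every adult rat lay above every young rat, and the difference was 0.56 (SE 0.08, 1.48-fold, adjusted p = 3.17e-06). Slc25a11 was at 4.70, 4.82 and 5.04 at 8 weeks and at 5.16, 5.40 and 5.97 at 21 weeks. The minus-strand probe of Slc25a20 lies opposite to its brightest probe, which is on the plus strand, and is not a second measure of the same transcript. Above background on 29 arrays, this minus-strand probe rose by 0.29 (adjusted p = 0.00999). The ages of Slc25a11 did not overlap either, with a difference of 0.60 (SE 0.09, 1.51-fold, adjusted p = 1.09e-05). The ages also did not overlap for Slc25a39, Slc25a14 and Slc25a27. These were 5 carriers of 38, against 6.66% of all probes.

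Slc25a34 had the largest increase, from 0.76, 0.94 and 1.12 at 8 weeks to 1.07, 1.61 and 2.64 at 21 weeks. The difference was 0.79 (SE 0.13, 1.73-fold, adjusted p = 4.17e-05). The pyrimidine nucleotide carrier Slc25a33 rose by 0.66, the glycine carrier Slc25a38 by 0.62 and Slc25a29, a carrier of basic amino acids, by 0.61. The S-adenosylmethionine carrier Slc25a26, Slc25a28, Slc25a23, Slc25a10, Slc25a25 and Slc25a30 rose by 0.35 to 0.50.

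At the top of the order the size depended on the scaling. The unsaturated probes of Slc25a4 rose by 0.37 (adjusted p = 0.0055) and 0.24 (adjusted p = 0.016). The call counted for Slc25a4 is that of its brightest probe, which was saturated on all arrays at 8 weeks and on 5 female and 4 male arrays at 21 weeks, so its difference of 0.54 is not a measure of size. Slc25a3 rose from a median of 7.51 to 7.83, by 0.56 (SE 0.13, adjusted p = 0.00145). With quantile normalization the difference of the saturated Slc25a4 probe was 0.0013 (adjusted p = 0.985), that of Slc25a3 0.12 (adjusted p = 0.359) and that of Slc25a12 -0.0090 in place of 0.30. The second probe of Slc25a12, above background on 27 arrays, was not called (-0.09, adjusted p = 0.679). Quantile normalization moved the median of all probes from 0.28 to 0.05, and it called 14 carriers higher and 8 lower, in place of 18 and 4, where it called 30.6% of all probes.

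The carriers called lower were Slc25a27, Slc25a42, Slc25a37 and Slc25a2. Slc25a42 fell by 0.22 (adjusted p = 0.0478), a call lost without any 1 of 15 arrays, at -0.22 to -0.19. Its second probe, above background on 29 arrays, was at a difference of 0.19 (adjusted p = 0.228). Slc25a37 and Slc25a2 were above background on 1 array each, so no fold is given for them. Their calls were lost without male replicate 3 at 21 weeks (Slc25a37, -0.57) and without any 1 of 13 arrays (Slc25a2, between -0.61 and -0.48), and both turned to positive values with the raw median signal. Slc25a13, Slc25a22, Slc25a5 and Slc25a6 were not called, with differences of -0.10, -0.15, -0.07 and -0.13.

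**Figure D2:**
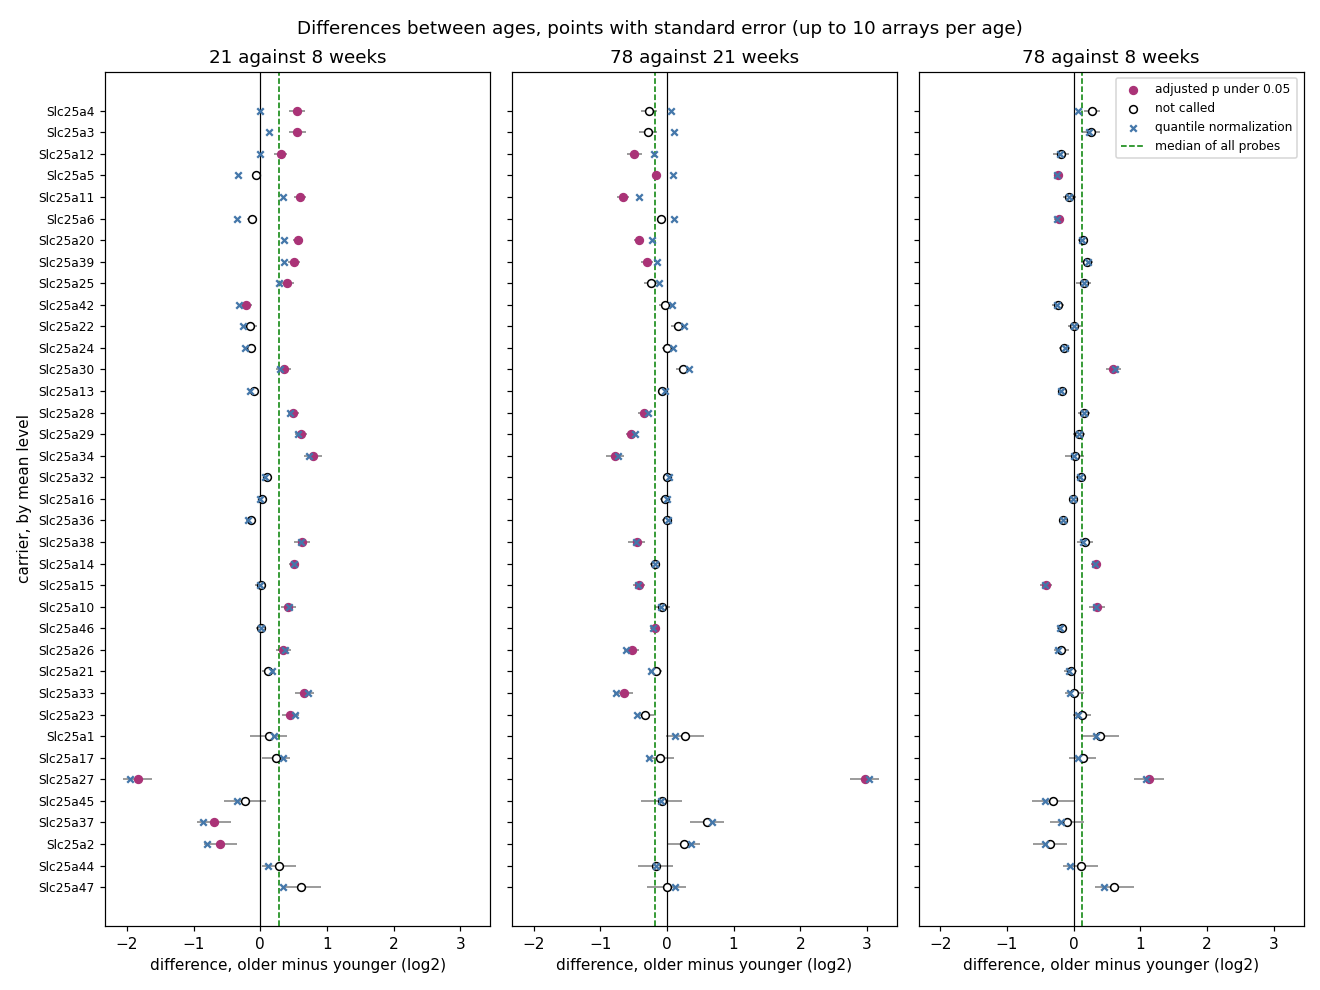
Difference between ages (log2, older minus younger, x axis) for 37 carriers in 3 comparisons, with 1 standard error, over up to 10 arrays per age. Slc25a4 is drawn at its saturated probe, and Slc25a12 has 2 to 5 arrays per sex and age. Filled points were called at an adjusted p under 0.05, crosses give quantile normalization and the dashed line is the median of all probes (0.28, -0.17 and 0.13). Of the called points 17 of 21 lie right of 0 in the first panel and 13 of 14 left of 0 in the second, with Slc25a27 the exception there, and crosses of Slc25a4 and Slc25a3 lie near 0 in the first.

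Between 21 and 78 weeks 15 carriers were called, 1 higher and 14 lower in old rats, where 32.2% of all probes were called, 14% higher and 18.2% lower, and 54.8% of those above background on at least 15 arrays. The median difference was -0.17 over carriers and -0.17 over all probes. Slc25a34 fell by 0.78 (SE 0.13, adjusted p = 4.71e-05), to 0.33, 0.99 and 1.60 at 78 weeks. Slc25a11 fell by 0.66 (SE 0.09, adjusted p = 2.5e-06), to 4.53, 4.73 and 5.40, and Slc25a20 by 0.42 (SE 0.08, adjusted p = 0.000112), to 4.21, 4.39 and 4.94. At all 3 the old rats overlapped the adults. The minus-strand probe of Slc25a20 was not called (0.15, adjusted p = 0.197). Slc25a33, Slc25a29, Slc25a26, Slc25a12, Slc25a38, Slc25a15, Slc25a28, Slc25a39, Slc25a46 and Slc25a5 fell by 0.17 to 0.65. The fall of Slc25a12 rests on 2 females and 2 males at 78 weeks, and its second probe was not called (-0.10, adjusted p = 0.657). Of the other Slc25a33 probes, that on the same strand fell by 0.75 and that on the plus strand was not called (0.43, adjusted p = 0.0545). With quantile normalization Slc25a5 turned to 0.084. Slc25a46, which acts on the shape of mitochondria at the outer membrane, was lost without any 1 of 11 arrays, with values between -0.19 and -0.16. Slc25a4 fell by 0.54 and 0.26 at its unsaturated probes (adjusted p = 0.00038 and 0.0156) and was not called at the saturated one (-0.27, adjusted p = 0.089).

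Within the scan day that held arrays of both 21 and 78 weeks, 1 carrier was called, Slc25a27, where 7.67% of all probes were. Slc25a34, Slc25a11 and Slc25a20 had differences of -0.54, -0.49 and -0.31 there (adjusted p = 0.182, 0.0856 and 0.212). Over all arrays, 3 of 6 cardiomyocyte genes were lower at 78 than at 21 weeks and 1 was higher, the calcium release channel gene Ryr2 (1.19, adjusted p = 3.44e-07). Of fibroblast genes 2 of 6 were higher and 1 lower, of endothelial genes 3 of 5 higher, of leukocyte genes 2 of 5 lower and of erythroid genes 1 of 3 lower, and their part in the result was not tested.

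The uncoupling-protein-like carrier Slc25a27, known for its expression in brain, changed in the direction opposite to most called carriers from 8 to 21 and from 21 to 78 weeks. At its brightest probe it was at -2.78, -2.04 and -1.83 at 8 weeks, at -5.31, -4.19 and -2.98 at 21 weeks and at -1.92, -0.99 and -0.51 at 78 weeks. The adults overlapped neither other age, the 1 such carrier at 78 against 21 weeks, where 3.68% of all probes did not overlap. The young and the old overlapped. It was above background on 10, 3 and 10 arrays, so 7 adult values lay at background. The difference was -1.84 (SE 0.22, adjusted p = 3.84e-07) at 21 against 8 weeks, 2.96 (SE 0.22, adjusted p = 3.06e-10) at 78 against 21 weeks and 1.13 (SE 0.22, adjusted p = 0.00101) at 78 against 8 weeks. With the raw median signal, which keeps the background, these were -0.28, 0.96 and 0.67. With normexp background correction without the 2 arrays that it compressed they were -0.13, 0.71 and 0.58, and the first was not called (adjusted p = 0.252).

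Slc25a27 had 3 probes, of which the dimmer pair was above background on 2 and on 0 arrays. No difference between ages is read from these. The brightest probe lies on the plus strand at chr9:13021310-13021369 of rn3 and its first bases are shown. The dimmest lies at chr9:13010195-13014240 on the same strand, its 60 bases divided over that interval. They are shown so that a reader can see which stretches were read.
Slc25a27 brightest probe, first 30 bases: tgtcacaagaagactttgtagtgctttgga
Slc25a27 dimmest probe: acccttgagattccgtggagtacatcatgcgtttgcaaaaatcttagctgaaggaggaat

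**Figure D3:**
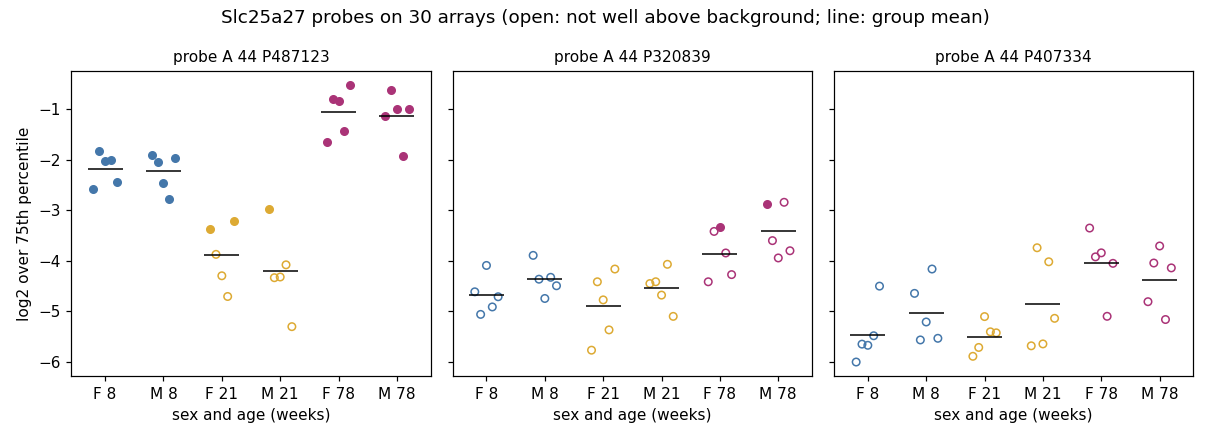
Level of the 3 Slc25a27 probes (log2 relative to the array's 75th percentile, y axis) in females and males of each age, with the group mean as a line and open points where a spot was not well above background. At the first probe the 78-week arrays lie between -1.92 and -0.51 and the 21-week arrays between -5.31 and -2.98, 7 of the latter open.

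In old against young rats 7 carriers were called, 4 higher and 3 lower at 78 weeks, where 10.8% of all probes were called, 5.95% higher and 4.89% lower, and 17.9% of those above background on at least 15 arrays. No carrier's ages were free of overlap, against 2% of all probes. The uncoupling-protein-like carrier Slc25a30 rose from 1.24, 1.60 and 1.97 at 8 weeks to 1.53, 2.26 and 2.50 at 78 weeks, by 0.60 (SE 0.11, 1.51-fold, adjusted p = 0.000516). Its dimmer second probe rose by 0.55 (adjusted p = 0.0066). Slc25a27 rose, and Slc25a14 and Slc25a10 were 0.34 and 0.35 higher (adjusted p = 0.00329 and 0.0475). The second Slc25a14 probe, above background on all 30 arrays, was not called (0.06, adjusted p = 0.808). The call of Slc25a10 was lost without any 1 of 14 arrays, at 0.27 to 0.37. The row named Slc25a14 is built from 2 probes that the scanner files name Dio2, so its values hold for the probes and not with certainty for the carrier.

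The ornithine carrier Slc25a15 was at 0.05, 0.28 and 0.42 at 8 weeks and at -0.46, -0.18 and 0.37 at 78 weeks, and it fell by 0.41 (SE 0.09, 1.33-fold, adjusted p = 0.00154). Its probe at chr16:74299877-74299936 of rn3 is on the plus strand. The probe of its other row lies on the minus strand at chr16:74288407-74288466 and was above background on 0 arrays, at -4.94. Carriers with probes on both strands were 7, and these are shown as 1 example of such a pair.
Slc25a15 plus-strand probe: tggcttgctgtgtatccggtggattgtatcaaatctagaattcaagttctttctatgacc
Slc25a15 minus-strand probe: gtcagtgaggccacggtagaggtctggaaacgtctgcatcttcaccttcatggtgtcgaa

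Slc25a5 fell by 0.24 (SE 0.06, adjusted p = 0.00437), from a median of 5.62 at 8 weeks to 5.39 at 78 weeks. Its 3 probes on the minus strand of chromosome X were lower in old rats, by 0.24 to 0.33. A probe of another Slc25a5 row, which the scanner files place on chromosome 2, was lower by 0.28 (difference -0.28). A pair of the former, placed at chrX:8078180-8078575 and chrX:8078158-8078553, shares a run of 22 bases, in capitals, and is not independent.
Slc25a5 probe a: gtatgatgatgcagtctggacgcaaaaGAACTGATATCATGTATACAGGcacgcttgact
Slc25a5 probe b: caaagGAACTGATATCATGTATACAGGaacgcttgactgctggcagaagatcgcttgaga

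Slc25a6 fell by 0.22 (adjusted p = 0.0271), with the shared run of its probe as above, and the call was lost without any 1 of 4 arrays (female replicate 1 at 8 weeks, and female replicate 5 and male replicates 1 and 5 at 78 weeks), at -0.22 to -0.20. Slc25a3 and Slc25a20 were not called, with differences of 0.27 and 0.14, and the minus-strand probe of Slc25a20 rose by 0.45 (adjusted p = 0.0018). Slc25a4 was not called at its unsaturated probes (-0.17 and -0.02, adjusted p = 0.297 and 0.889) or at the saturated one (0.27). Slide 3 held arrays of both ages, 1 pair of rats each. On it Slc25a27, Slc25a30 and Slc25a15 differed by 0.80, 0.75 and -0.38, in the same direction, with 0 carriers and 0 of all probes called. Within the scan day that held both ages 8 carriers were called, where 30.9% of all probes were. These included all of the 7 except Slc25a10 (0.35, adjusted p = 0.0667), and Slc25a11 and Slc25a26. Without slide 2, 4 carriers were called, and Slc25a14, Slc25a5 and Slc25a6 were lost. Of the other cell type genes, 2 of 6 fibroblast genes, 1 of 5 endothelial and 1 of 6 cardiomyocyte genes were lower and 2 of 5 leukocyte and 1 of 3 erythroid genes higher at 78 than at 8 weeks. Of the adipose genes, 0 of 4 measured were called between these ages, and their summed signal was 17.1 to 102.9 at 8 weeks and 17.0 to 181.5 at 78 weeks. Their part in the results was not tested.

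**Figure D4:**
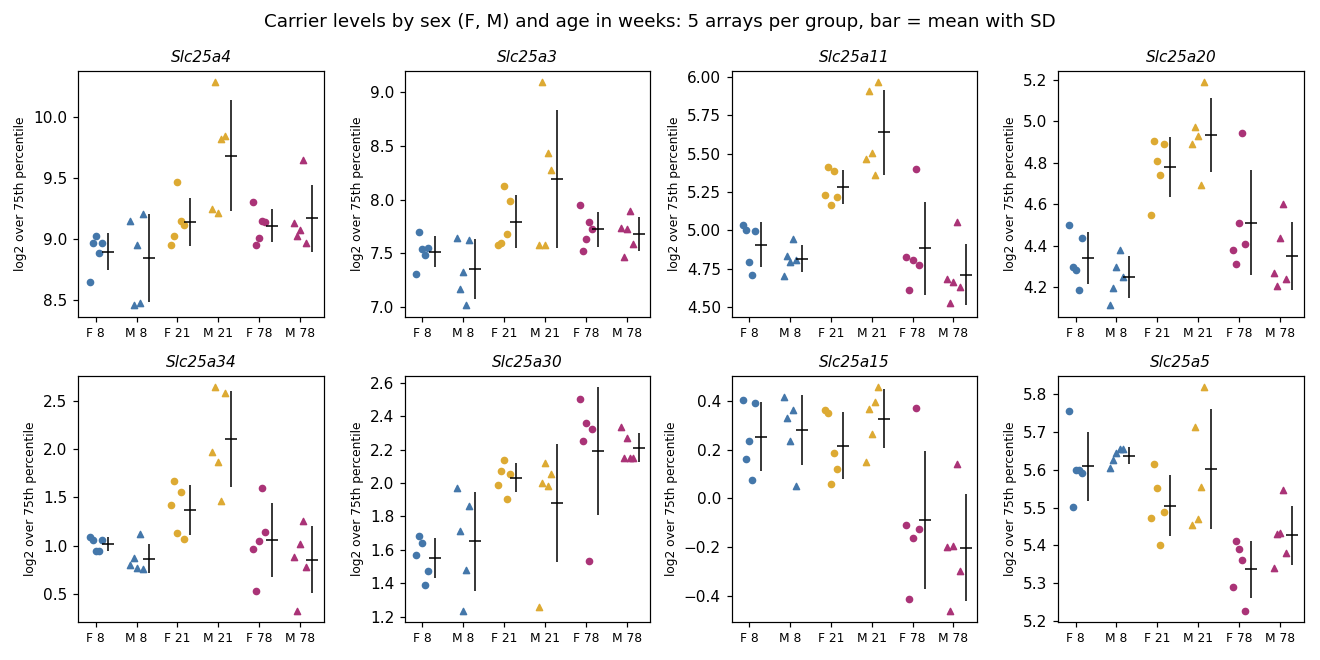
Level of 8 carriers (log2 relative to the array's 75th percentile, y axis) in each rat by sex (F circles, M triangles) and age, with the mean and SD of each group beside the points, 5 arrays per group. Slc25a4 is drawn at its saturated probe. Slc25a11 and Slc25a20 are higher at 21 weeks, where no array overlaps 8 weeks, and Slc25a15 and Slc25a5 are lower at 78 than at 8 weeks.

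The change over age was also taken within each sex. In females alone 4, 1 and 1 carriers were called at 21 against 8, 78 against 8 and 78 against 21 weeks, and in males alone 18, 1 and 17, against 7.31, 2.47 and 9.04% and 53.1, 3.95 and 32.1% of all probes. Males at 21 weeks were the dimmest group, as given above, and the part of this in the counts was not tested. The difference between the sexes in the change over age was tested directly, and 0 carriers were called in any of the 3 contrasts, where 0.00244, 0 and 0.00244% of all probes were, with 3, 2 and 6 at an unadjusted p under 0.05, against 16.5, 2.32 and 12.6% of all probes. Slc25a34 had the lowest p from 8 to 21 weeks, 0.35 in females and 1.24 in males (adjusted p = 0.295).

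Genes related to these carriers, but not members here, were taken as a fixed list that includes channels, shuttle enzymes and fatty acid enzymes. It also held Ckmt1b, Ckmt2, Ppif, Brp44, Brp44l, Mtch1, Mtch2 and the uncoupling proteins Ucp1, Ucp2 and Ucp3. Ckmt1b was above background on only 0, 5 and 3 arrays at 8, 21 and 78 weeks. Of 20 genes of the list with a value, 15 were higher and 0 lower at 21 than at 8 weeks, and 0 higher and 15 lower at 78 than at 21 weeks, against 41.5% of all probes higher in the former and 18.2% lower in the latter comparison. Ckmt1b is counted in both. Of probes above background on at least 15 arrays, fitted alone, 6803 of 20804 were higher in the former and 6616 of 20809 lower in the latter. Of 21 measured at 78 against 8 weeks, 2 were lower, the shuttle transaminases Got1 (-0.38) and Got2 (-0.29). The shuttle dehydrogenases Mdh1 and Mdh2 rose by 0.50 and 0.59 from 8 to 21 weeks, beside Slc25a11, and Cpt1b, the muscle enzyme that feeds acylcarnitine to Slc25a20, by 0.17. Of the other carnitine enzymes listed, Crat rose by 0.40, and Cpt1a and Cpt2 were not called (0.07 and 0.07, adjusted p = 0.57 and 0.396). The median of all probes in this comparison was 0.28.

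Females and males were compared within each age on the authors' tables, with limma and Benjamini-Hochberg adjustment over all rows of a table. A table row is a mean over its probes on its own scale, so these values are not set beside the levels above. No carrier was called at any age, where 0.102, 0.0511 and 0% of all rows were called. At an unadjusted p under 0.05 there were 3, 4 and 0 carriers by limma and 3, 5 and 1 by an ordinary linear model of each row without moderated variance, the form of the study's own test. The limma share over all rows was 5.74, 15.9 and 5.65%.

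At 8 weeks the calcium-regulated Slc25a24 was at 1.56, 1.57, 1.57, 1.61 and 1.64 in females and at 1.68, 1.78, 1.79, 1.82 and 1.89 in males. Every male lay above every female, and the difference, female minus male, was -0.20 (SE 0.06, adjusted p = 0.632). By exact permutation of female and male labels, two-sided, p was 0.00794, the smallest that 5 against 5 allows. It was the only carrier without overlap of the sexes at that age, against 1.41% of all rows. In 17 of 38 carriers the mean was higher in females, against 48.9% of all rows. Of the 3 carriers at an unadjusted p under 0.05, 1 was higher in females (2.21% of all rows) and 2 in males (3.52%). Slc25a25 was 0.43 higher in females (SE 0.19, adjusted p = 0.87) in a row that averages a bright probe and one above background on no array. The bright probe alone differed by 0.26. Slc25a2 differed by -0.94 at background.

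At 21 weeks 4 carriers had a higher mean in males at an unadjusted p under 0.05, among them Slc25a34, Slc25a38 and Slc25a11, where 9.67% of all rows did. At that p, 0 carriers and 6.19% of all rows had a higher mean in females. Slc25a34 was at 0.35, 0.42, 0.71, 0.86 and 0.97 in females and at 0.79, 1.19, 1.29, 1.84 and 1.93 in males. The sexes overlapped here and in all other carriers of that age, against 4.05% of all rows without overlap, and the difference was -0.75 (SE 0.23, 1.68-fold, adjusted p = 0.274). Slc25a38 and Slc25a11 differed by -0.48 and -0.37 (adjusted p = 0.302 and 0.29). Of 38 carriers 9 had the higher mean in females, where 36.8% of all rows had. The median difference was -0.13 over carriers and -0.14 over all rows. Slc25a11 did not pass an unadjusted p of 0.05 with the raw median signal. The number at an unadjusted p under 0.05 was 7 without male replicate 1, 2 without female replicate 1 or 3 and 1 without male replicate 2 or 5.

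At 78 weeks 0 carriers had an unadjusted p under 0.05 and 26 of 38 had a higher mean in females, against 49.2% of all rows. The sexes overlapped in every carrier, against 0.9% of rows without overlap. Without the 2 arrays whose Y-linked genes went against the label there were 4, where 8.38% of rows passed, 2.83% higher in females. Slc25a42, Slc25a22 and Slc25a16 were higher in females by 0.56, 0.42 and 0.26 and Slc25a24 higher in males by 0.39 (female minus male -0.39), and 0 of these passed the adjustment, where 0.0341% of rows did. Over all 10 arrays these differences were 0.35, 0.21, 0.20 and -0.26. Slc25a4 and Slc25a3 differed by 0.05 and 0.15 at 8 weeks, -0.30 and -0.41 at 21 weeks and 0.16 and 0.02 at 78 weeks, none at an unadjusted p under 0.05. The Slc25a4 row averages 3 probes, among them the one saturated on 26 of 30 arrays, so its differences are not a full measure of size.

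**Figure D5:**
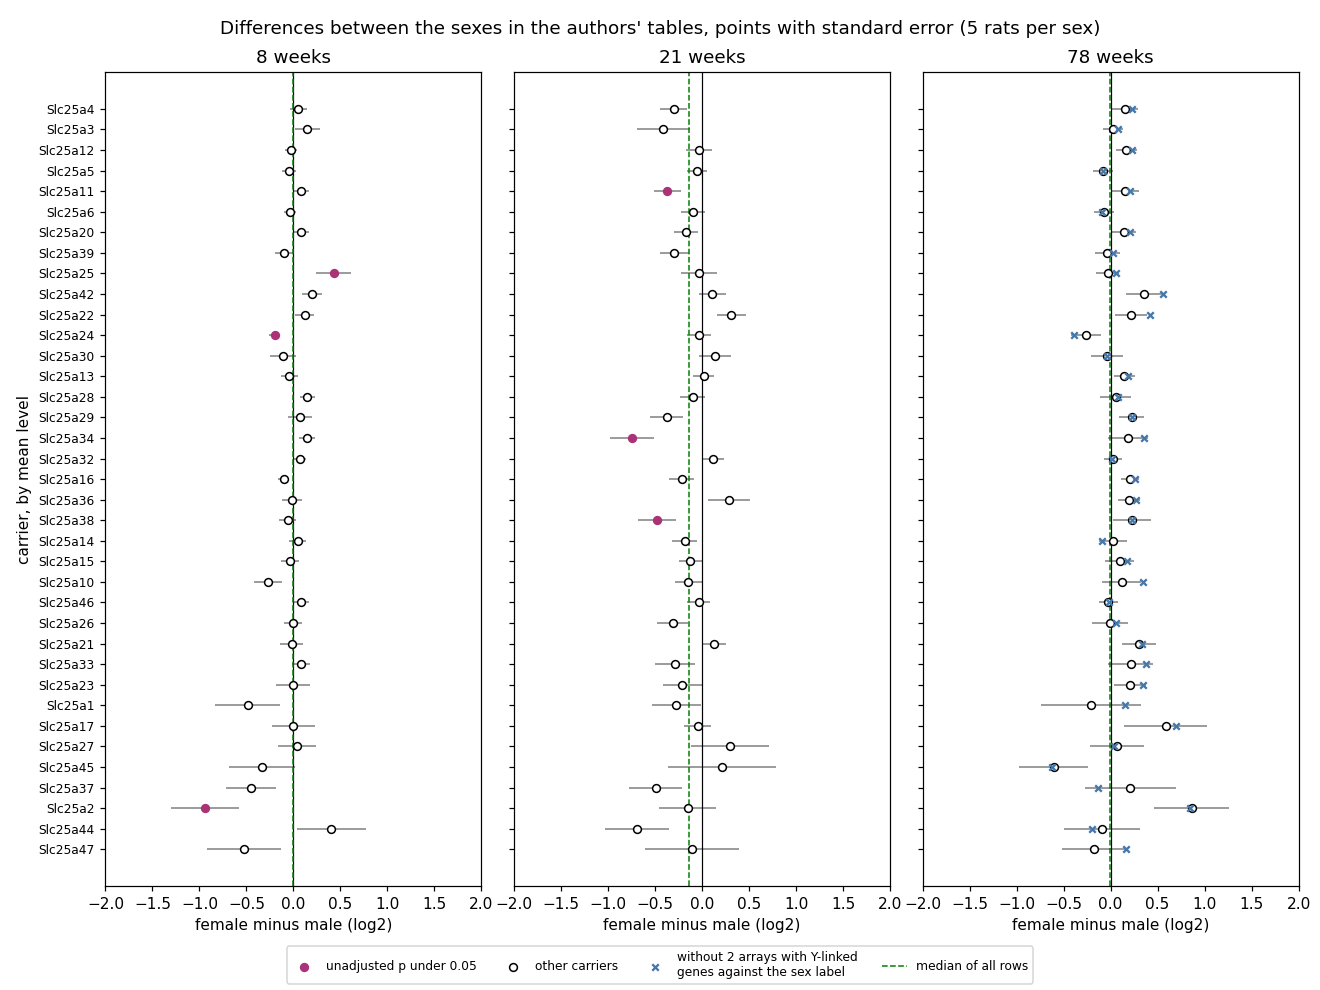
Difference between the sexes (log2 of the authors' table values, female minus male, x axis) for 37 carriers at 8, 21 and 78 weeks, with 1 standard error, over 5 rats per sex. Filled points had an unadjusted p under 0.05 (3, 3 and 0 of those drawn), the dashed line is the median of all rows and crosses at 78 weeks leave out the 2 arrays whose Y-linked genes went against the label.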

How the data were processed

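Hearts of 30 rats were hybridized to one-color Agilent rat arrays. The authors scanned them with a GenePix scanner and extracted spot intensity with Agilent Feature Extraction, according to the study's methods and the labels. The deposited scanner files hold the intensity of each spot, processed (background-subtracted), mean and median, with flags for background, saturation and outliers. The authors averaged the probes of a gene, removed non-expressed genes and scaled each array by its 75th percentile. The deposited tables hold this signal on a linear scale, 1 per age. Within 0.002 log2, 99.5% of the rows of each table were matched to the processed intensity. The details of the gene averaging and of background subtraction are not given in the sources used here.

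Scanner values were log2 of the processed intensity minus the array's 75th percentile, spots of 1 probe averaged and outlier-flagged spots dropped. Differences were tested with limma 3.58.1 in R 4.3.3, two-sided and Benjamini-Hochberg adjusted. Ages were compared in 1 fit of 30 arrays and 6 groups with the slide as a random block (consensus correlation -0.042). Sexes were compared per age on log2 table values (5 against 5). Columns of males at 21 weeks give no replicate, and for single arrays of that group the values were rebuilt from the scanner files. Nothing states more of the rats' relation, so p-values measure the spread between these samples. The number of arrays limits the precision.

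The members and lists were chosen with earlier results of these data known. Named carriers were the 10 with the highest level, those above background on no array, those at an unadjusted p under 0.05 between the sexes, the 10 called with the largest change in each direction and age comparison, and role groups. Same-numbered females and males lay on 1 slide. Their deviations correlated between 0.155 and 0.335 at 78 weeks, each highest with its own number, so the numbers were read as pairs there. The tests between the sexes given above did not use this pairing, which entered only as a replicate block among the alternatives. The scripts were tested on simulated data. Alternatives were quantile normalization, normexp background correction, the raw median signal, a filter on dim probes, other rows, blocks, and leaving out arrays, slides or sexes. Of the 38 carriers, 1 is in the counts and medians but is not reported here by itself or drawn.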

Additional observations from a re-analysis of the deposited data

Results flagged for a closer look

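In groups of 5 arrays, the highest or lowest array was tested for its gap to the nearest other array (Dixon's 95% limit) over 223 groups, and 12 arrays of 10 carriers stood apart, where chance flags about 1 in 20 groups. All levels are log2 over the 75th percentile. In females, Slc25a1 was at -1.38 in replicate 4 at 8 weeks, Slc25a24 at 2.53 in replicate 5 and Slc25a28 at 1.51 in replicate 3 at 21 weeks, and Slc25a11 at 5.40 and Slc25a30 at 1.53 in replicate 4 at 78 weeks. In males, Slc25a28 was at 1.00 in replicate 5 and Slc25a38 at 0.43 in replicate 4 at 8 weeks, and Slc25a30 was at 1.25 in replicate 1 at 21 weeks. At 78 weeks Slc25a10 was at 0.70 in male replicate 3, 1 of the 2 arrays whose Y-linked genes went against the label, Slc25a17 at -4.26 and Slc25a4 at 9.65 in male replicate 4, and Slc25a45, mostly at background, at -3.37 in male replicate 2. The Slc25a4 value is that of the probe saturated on 26 of 30 arrays. Its dimmest probe, never saturated, was at 5.75 in male replicate 4 and at 5.50 to 5.72 in the other males of that age.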

How the results depend on the processing

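The top 10 by level were the same under quantile normalization; with normexp correction or the raw median signal Slc25a24 took the place of Slc25a42, and with the first row of each name 8 stayed. At 21 against 8 weeks 22 carriers were called, 4 in females alone and 0 with normexp. Of all probes, normexp called 2.03% there, and 66.5% without the 2 arrays it compressed. The shares for each sex alone are given above. At 78 against 8 weeks 7 were called, 1 in females alone, 1 in males alone, 1 with normexp, 11 with the raw median signal, 4 without slide 2 and 0 on slide 3 alone. Of all probes, normexp called 0.822% and the raw median signal 20.1% in this comparison. At 78 against 21 weeks 15 were called, 1 in females alone, 0 with normexp, 7 with normexp without the 2 arrays it compressed and 1 within the scan day that holds both ages. The last 3 settings called 0.695, 12.5 and 7.67% of all probes. Normexp compressed 2 arrays, with interquartile ranges of 0.044 and 0.059 against 0.94 to 1.83 on the others. That omission, the omission of each slide, the mean over a row's probes and keeping outlier spots were chosen after seeing the data.

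Between the sexes, the count at an unadjusted p under 0.05 was 3 at 8 weeks, 1 with normexp, 0 with the raw median signal and 1 to 3 over arrays left out (1 without female or male replicate 3). At 21 weeks it was 4, 0 with normexp and 1 to 7 over arrays left out. At 78 weeks it was 0, and 1 with the unmoderated linear model, 2 with the raw median signal, 2 with normexp without the array it compressed, 1 with the first row, 4 without the 2 arrays whose Y-linked genes went against the label and 0 to 2 over arrays left out. For the sex by age contrasts, 21 against 8 weeks had 3, 0 with normexp and 1 with quantile normalization. 78 against 8 weeks had 2, 0 with normexp, 4 without the 2 odd arrays and 1 with the replicate block, and 78 against 21 weeks had 6, 10 with normexp and 10 without the 2 odd arrays. The replicate block gave 4, 3 and 0 carriers at 8, 21 and 78 weeks, and changed no call at 78 weeks. Same-numbered samples at 8 and 21 weeks shared a slide but were not taken as pairs (correlations from -0.18 to 0.43, and not every sample correlated best with its own number).

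Directions turned for single carriers. Slc25a24 at 8 weeks was 0.22 with the first row, and Slc25a11 at 21 weeks 0.19 with normexp. At 21 against 8 weeks Slc25a12 was -0.24 with normexp and -0.0090 with quantile normalization, Slc25a2 was 0.36, 0.24 and 0.19 and Slc25a37 was 0.35, 0.23 and 0.19 with normexp, the raw median signal and normexp without 2 arrays. With the first row, Slc25a15 was 0.034 at 78 against 8 weeks, and Slc25a20, Slc25a33 and Slc25a46 were 0.15, 0.43 and 0.63 at 78 against 21 weeks. Slc25a5 was 0.084 there with quantile normalization. The first rows of Slc25a15, Slc25a20, Slc25a33 and Slc25a46 are probes on the strand opposite to the brightest probe. They are therefore not second measures of the same transcript. The first row of Slc25a24 is another probe on the same strand, at -5.27 and above background on 0 arrays, so no direction is read from it. The cause of the other turns was not tested. Dim probes limit what can be said of carriers below -4.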
